A study of Mus musculus with 8 samples.

Results

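The genes described here are 10 genes of the endoplasmic reticulum (ER) stress response: Calr, Canx, Pdia4, Manf, Herpud1, Ern1, Atf6, Xbp1, Atf4 and Ddit3. They were chosen with earlier results of these data known, and were found by gene name among the non-control probes of a mouse Agilent array. There they have 14 probes of 55681, and 10 of the 34844 gene and transcript names. The arrays hold total RNA of striatal medium spiny neurons (MSNs), the projection neurons of the striatum, isolated by fluorescence-activated sorting as Venus-positive and propidium iodide-negative cells. All mice were males aged 4 weeks that carried the Scn4b-Venus reporter, in which Venus marks cells expressing the sodium channel subunit Scn4b. In addition, 4 arrays came from mice with the R6/2 transgene (R6/2;Scn4b-Venus), and 4 came from mice without it (WT;Scn4b-Venus, called control below). R6/2 is a Huntington's disease model that carries exon 1 of human HTT with an expanded CAG repeat in addition to the mouse's own Htt. The comparison answers which of these genes differed between the genotypes at this age. The labels do not say whether an array holds 1 mouse or a pool, so the p-values measure the spread between these samples.

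Secreted and membrane proteins fold in the ER with the help of chaperones and disulfide isomerases. When unfolded proteins build up there, the sensors Ire1 (the product of Ern1), Perk (Eif2ak3) and Atf6 start the unfolded protein response, which slows translation and raises transcription of folding and degradation genes. Ire1 splices Xbp1 mRNA into the form that codes for an active transcription factor, Perk favours translation of Atf4, which activates Ddit3 (also known as Chop), and Atf6 is cut to release a transcription factor. ER stress has long been studied in cells that express mutant huntingtin. Several steps of this response act on splicing, translation or cleavage, which an array of mRNA levels does not measure.

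Atf6 and Xbp1 act through short promoter elements, so the promoters of the members that hold one are shown, as the 250 bases before the transcription start in RefSeq (GRCm38.p6), on the gene's strand. The ER stress response element was searched on both strands as CCAAT and CCACG with 9 bases of any kind between them, and it is found in Calr and Canx. Its 2 fixed parts are in capitals, and in Calr they read on the opposite strand.
Calr, chr8:84846932-84847181, minus strand: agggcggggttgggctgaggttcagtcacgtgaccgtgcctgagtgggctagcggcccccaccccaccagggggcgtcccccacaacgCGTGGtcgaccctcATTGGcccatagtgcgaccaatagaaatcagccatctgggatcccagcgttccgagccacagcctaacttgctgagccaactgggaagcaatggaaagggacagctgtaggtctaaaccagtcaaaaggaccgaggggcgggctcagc
Canx, chr11:50325674-50325923, minus strand: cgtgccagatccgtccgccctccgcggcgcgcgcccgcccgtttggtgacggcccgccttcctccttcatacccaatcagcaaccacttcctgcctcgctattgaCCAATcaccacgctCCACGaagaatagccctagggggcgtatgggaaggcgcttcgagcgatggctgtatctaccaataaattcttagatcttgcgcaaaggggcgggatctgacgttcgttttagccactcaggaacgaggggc
The second form of the element, ATTGG and CCACG with 1 base of any kind between them, is found in Herpud1, which also holds the C/EBP-ATF element TGATGNAA, the kind of site bound by Atf4, on the opposite strand; the fixed bases of the former and the whole of the latter are in capitals.
Herpud1, chr8:94386179-94386428, plus strand: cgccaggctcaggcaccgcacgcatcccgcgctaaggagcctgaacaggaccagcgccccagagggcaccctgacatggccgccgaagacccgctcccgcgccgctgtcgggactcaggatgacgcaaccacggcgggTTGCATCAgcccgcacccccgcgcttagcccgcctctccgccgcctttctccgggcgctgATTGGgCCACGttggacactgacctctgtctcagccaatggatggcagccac

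The matches run from -162 to -144 relative to the start in Calr, from -145 to -127 in Canx, and in Herpud1 from -52 to -42 for the second form and from -112 to -105 for the C/EBP-ATF element. A promoter window of 300 bases, with 50 after the start, was given for 8 of the 10 members. Among all 32851 windows of that length, the first element occurred in 39 (0.119%), the second form in 12 (0.0365%) and TGATGNAA in 1304 (3.97%). The Xbp1 element TGACGTGG, in 222 windows (0.676%), had no match in a member. Ddit3, Atf4, Xbp1, Ern1 and Pdia4 had no match to any of these letters in their windows. A match is a description of the sequence and not evidence of binding.

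Among the folding factors, Calr had R6/2 levels above all control levels without passing the adjusted threshold, and Canx and Pdia4 overlapped between the genotypes. Calr encodes calreticulin, the soluble lectin chaperone of the ER lumen that helps glycoproteins fold and binds calcium. Its probe (A_51_P416419, chr8:87366192-87366251 in mm9, minus strand) had log2 levels relative to the 75th percentile of the array of 3.14, 2.30, 2.67 and 2.74 in the control arrays, from replicate 1 to replicate 4, and 3.68, 3.22, 3.45 and 3.50 in the R6/2 arrays, an order kept below. All 4 R6/2 arrays lay above the highest control array. The control mean of 2.71 ± 0.34 and the R6/2 mean of 3.46 ± 0.19 (SD, n = 4 each) gave a log2 difference of 0.75 (SE 0.23, 95% interval 0.22 to 1.28), which is 1.68-fold (1.17 to 2.42). The limma p-value was 0.0108 and the p-value adjusted over all 41385 tested probes was 0.608, so Calr did not pass the threshold of 0.05. An exact permutation test over the arrays, two-sided, gave p = 0.0286, the smallest that 4 against 4 allows. It takes this value whenever the groups do not overlap, so it adds nothing to that separation. Of all tested probes, 2.30% had every R6/2 array above every control array, and 4.56% were separated in either direction. A limma p-value as small as that of Calr or smaller was reached by 1.78%.

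**Figure D1:**
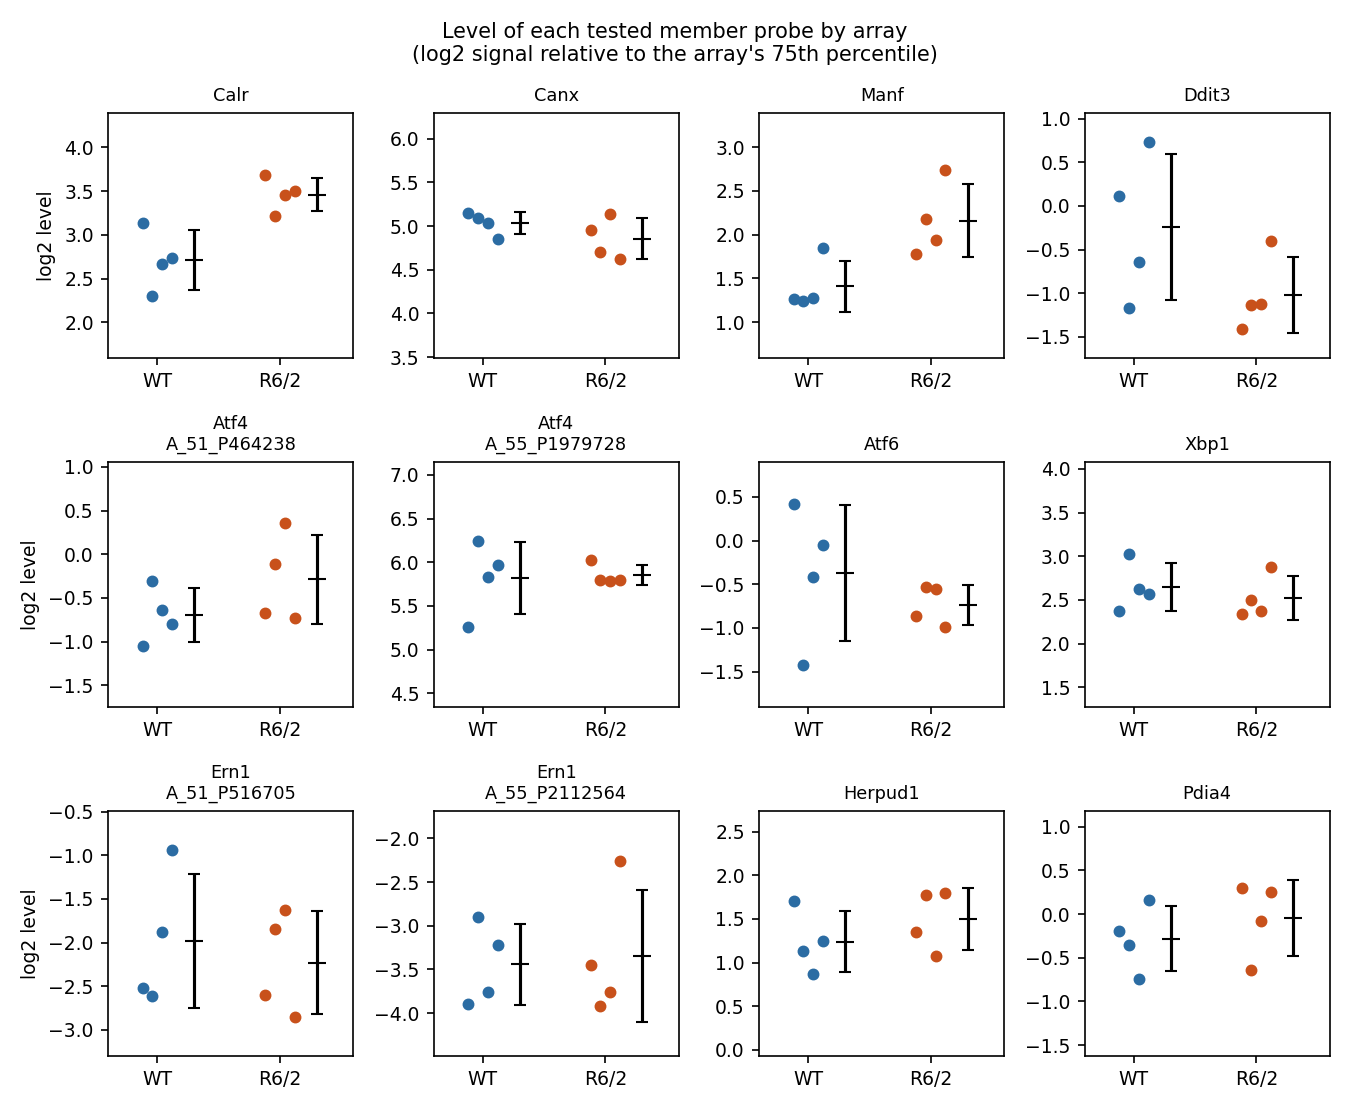
Log2 level relative to the 75th percentile of the array for each tested probe of the members, with 1 point per array and a black mark with bars for the group mean ± SD, control and R6/2 (n = 4 each) side by side. The 4 R6/2 arrays of Calr, from 3.22 to 3.68, lie above the 4 control arrays, from 2.30 to 3.14, and in every other probe the groups overlap.

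Canx encodes calnexin, the membrane-bound partner of calreticulin. Its probe (A_52_P337679, chr11:50108047-50108106, minus strand) stood at 5.15, 5.09, 5.04 and 4.86 in the control arrays and at 4.96, 4.71, 5.13 and 4.63 in the R6/2 arrays. The groups overlapped, with means of 5.04 ± 0.13 and 4.86 ± 0.23 (SD, n = 4 each). The log2 difference was -0.18 (SE 0.20, 95% interval -0.63 to 0.27), with a limma adjusted p of 0.883. The interval leaves out a value as high as the 0.75 of Calr, but it overlaps the interval of Calr, 0.22 to 1.28. Whether the 2 genes differ in their response was not tested.

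The 2 partners were set against each other within each array, a comparison chosen after their values were seen, so it is given with no test. Because both probes share an array's scaling, this difference is the same under every scaling by a constant. The level of Calr minus that of Canx was -2.02, -2.79, -2.37 and -2.12 in control, and -1.28, -1.49, -1.68 and -1.13 in R6/2. The 2 ranges did not overlap, and the group means of -2.33 ± 0.34 and -1.40 ± 0.24 (SD, n = 4 each) differed by 0.93. Calr alone already separated the groups, and Canx had a difference of the opposite sign. The separation is therefore no further support for a change in Calr, and the share of probe pairs that separate was not counted. Only this change between the genotypes can be read, since the levels of different probes depend on how each binds.

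**Figure D2:**
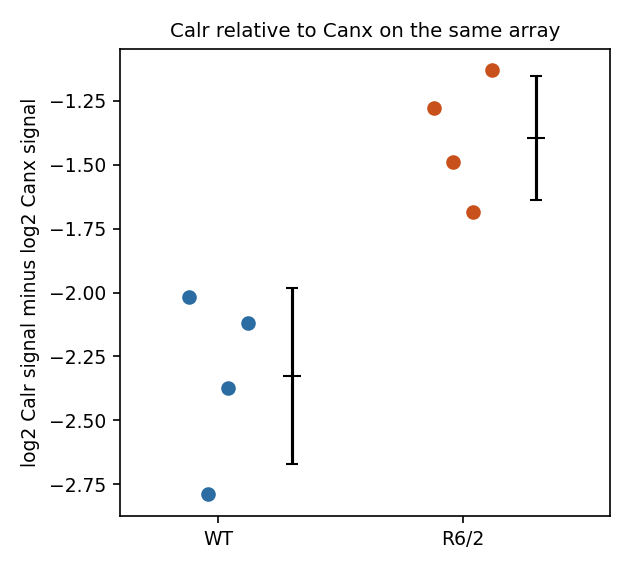
Log2 signal of Calr minus log2 signal of Canx on the same array (vertical), with 1 point for each of the 4 control and 4 R6/2 arrays and a black mark with bars for the group mean ± SD. The R6/2 arrays, from -1.68 to -1.13, lie above the control arrays, from -2.79 to -2.02.

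Pdia4, a protein disulfide isomerase of the ER lumen, overlapped between the genotypes. Its probe (A_51_P328300, chr6:47746516-47746575, minus strand) had levels of -0.19, -0.36, -0.74 and 0.16 in control and 0.30, -0.65, -0.08 and 0.25 in R6/2. The log2 difference was 0.24 (SE 0.29, 95% interval -0.43 to 0.90; limma adjusted p = 0.891), and it ranged from 0.085 without control replicate 3 to 0.44 without R6/2 replicate 2.

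Manf encodes a small ER protein that is released during ER stress and is known as a survival factor for neurons. Its probe (A_51_P418168, chr9:106791278-106791337, minus strand) had levels of 1.27, 1.24, 1.28 and 1.84 in control and of 1.78, 2.18, 1.94 and 2.74 in R6/2. Of the 4 R6/2 arrays, 3 lay above the highest control array, and R6/2 replicate 1 lay below it. The means were 1.41 ± 0.29 and 2.16 ± 0.42 (SD, n = 4 each), a difference of 0.75 (SE 0.27, 95% interval 0.14 to 1.37), or 1.69-fold (1.10 to 2.58). The limma p-value was 0.0218 and its adjusted value 0.664; the exact permutation test, two-sided, gave p = 0.0571. A limma p-value this small was reached by 3.27% of all tested probes. R6/2 replicate 4, which had the highest Manf level, was alone on the second slide, and the difference within the first slide was 0.56 (limma adjusted p = 0.845), while that of Calr was 0.74 (adjusted p = 0.795).

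Herpud1 encodes a membrane protein of ER-associated degradation, the pathway that returns misfolded proteins to the cytosol for the proteasome. Its levels (A_51_P434101, chr8:96919117-96919176, plus strand) were 1.70, 1.14, 0.87 and 1.24 in control and 1.35, 1.77, 1.07 and 1.80 in R6/2. The ranges overlapped, with 2 R6/2 arrays above the highest control array. The log2 difference of 0.26 (SE 0.26, 95% interval -0.34 to 0.86) had a limma adjusted p of 0.869, and it ranged from 0.14 without control replicate 3 to 0.41 without control replicate 1.

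Neither sensor among the members passed the test. Atf6 (A_66_P139333, chr1:172635311-172635370, minus strand) had levels of 0.42, -1.42, -0.41 and -0.06 in control and -0.87, -0.53, -0.56 and -0.99 in R6/2. The control arrays were spread more widely, with an SD of 0.78 against 0.23 in R6/2 (n = 4 each), and control replicate 2 was the lowest of all 8. The log2 difference was -0.37 (SE 0.38, 95% interval -1.23 to 0.50; limma adjusted p = 0.872), and it rested on single arrays: it was -0.72 without control replicate 2, where the unadjusted limma p was under 0.05, and -0.11 without control replicate 1.

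Ern1 has 4 probes, which lie at different places of the gene, and 2 of them were tested. The probe A_51_P516705 (chr11:106258948-106259007, minus strand) had levels of -2.51, -2.61, -1.87 and -0.94 in control and -2.60, -1.85, -1.63 and -2.85 in R6/2, a difference of -0.25 (SE 0.44, 95% interval -1.24 to 0.75; limma adjusted p = 0.928). The highest of these 8 values was control replicate 4, and without it the difference was 0.10. The probe A_55_P2112564, whose start lies 60950 bases away at chr11:106319898-106319957, had levels of -3.89, -2.90, -3.76 and -3.22 in control and -3.45, -3.92, -3.76 and -2.25 in R6/2. Its difference of 0.10 (SE 0.41, 95% interval -0.83 to 1.03) became -0.10 under quantile normalization, so neither probe shows a direction. The probe A_55_P2112560 (chr11:106296065-106296124) was well above background on 2 R6/2 arrays and no control array, and A_55_P2112569 (chr11:106275124-106275183) on none, and they were not tested. Levels of A_55_P2112560 were -3.53, -5.83, -6.36 and -6.01 in control and -7.02, -4.51, -6.06 and -3.70 in R6/2. Its highest value was thus a control array, and the background mark does not show signal in R6/2 alone.

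Of the transcription factors, Ddit3 had the most negative difference among the members. Ddit3 is a target of Atf4 that is linked to cell death under lasting ER stress. Its levels (A_52_P533146, chr10:126732518-126732821, plus strand) were 0.11, -1.17, -0.65 and 0.73 in control and -1.41, -1.14, -1.12 and -0.40 in R6/2. The control arrays ranged widely, and control replicate 2 was as low as the R6/2 arrays. The means of -0.24 ± 0.84 and -1.02 ± 0.43 (SD, n = 4 each) differed by -0.78 (SE 0.43, 95% interval -1.75 to 0.20). The limma adjusted p was 0.758, and the exact permutation p, two-sided, was 0.229. Single arrays moved this value more than that of Calr, to -1.08 without control replicate 2 (limma adjusted p = 0.640) and to -0.45 without control replicate 4.

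Atf4, the transcription factor upstream of Ddit3, has 2 probes whose starts lie 1263 bases apart. The probe A_51_P464238 (chr15:80086639-80086698, plus strand) had levels of -1.05, -0.31, -0.64 and -0.79 in control and -0.67, -0.11, 0.36 and -0.73 in R6/2, a difference of 0.41 (SE 0.30, 95% interval -0.27 to 1.09; limma adjusted p = 0.808). Without R6/2 replicate 3, its highest array, the difference was 0.20, and without R6/2 replicate 4 it was 0.56. In the probe A_55_P1979728 (chr15:80087902-80087961), the levels were 5.25, 6.24, 5.83 and 5.96 in control and 6.03, 5.79, 5.79 and 5.80 in R6/2. Its difference was 0.03 (SE 0.24, 95% interval -0.53 to 0.58; limma adjusted p = 0.987), and -0.07 when the arrays were scaled to their medians. Both intervals include 0, so the probes give no direction for Atf4 mRNA.

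Xbp1, the transcription factor whose mRNA is spliced by Ire1, was also without a call. Its probe (A_55_P1994032, chr11:5425816-5425875, plus strand) had levels of 2.38, 3.02, 2.63 and 2.57 in control and 2.33, 2.50, 2.37 and 2.88 in R6/2. The difference was -0.13 (SE 0.22, 95% interval -0.64 to 0.38; limma adjusted p = 0.927), and it ranged from -0.25 without R6/2 replicate 4 to -0.0057 without control replicate 2, the highest array. Whether this probe tells the spliced from the unspliced form was not examined.

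**Figure D3:**
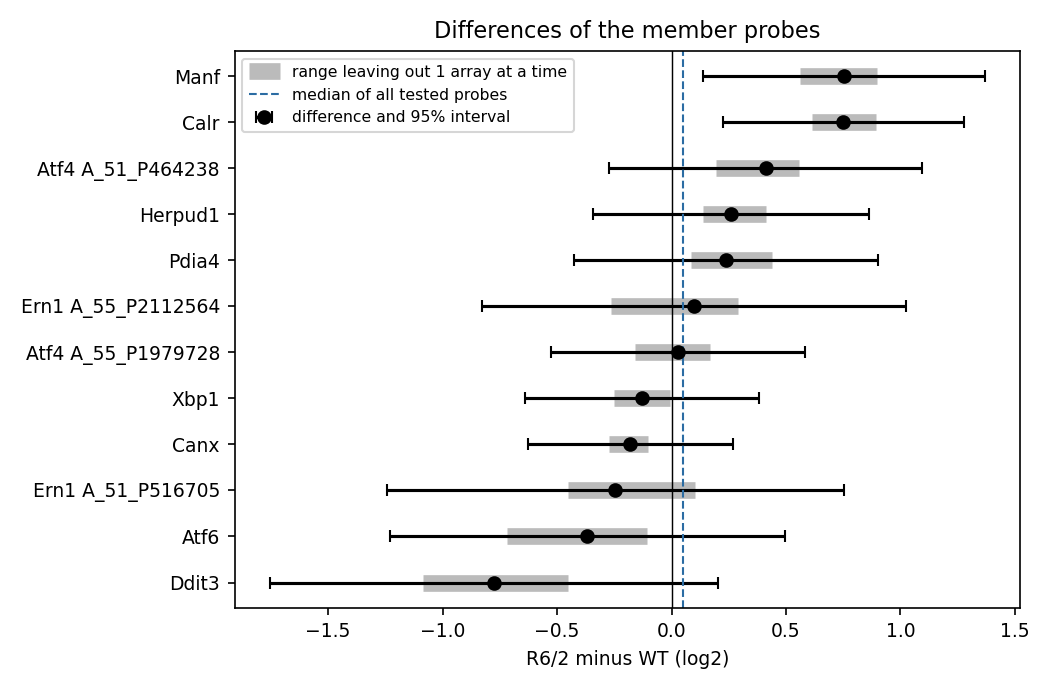
Log2 difference, R6/2 minus control, of the 12 tested member probes (points) with the 95% interval of the limma fit (bars) and the range over leaving out each array in turn (grey bands). The intervals of Calr (0.22 to 1.28) and Manf (0.14 to 1.37) lie above 0, and those of the other 10 probes include 0.

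Over the members, 12 of the 14 probes stood well above background on 4 or more arrays and were tested, and every member had a tested probe. None had an adjusted p under 0.05, against 0.00242% of all tested probes, which is 1 probe. At an unadjusted limma p under 0.05 there were 2, both higher in R6/2 (Calr and Manf). Of all probes, 3.97% were higher and 3.05% lower at that level, 7.02% in all. Because the members were chosen with earlier results of these data known, the count beside these shares is a description and no test. Non-overlapping groups were seen in 1 member probe (Calr, R6/2 above), against 2.30% of all probes with R6/2 above, 2.26% with R6/2 below and 4.56% in either direction. The differences were positive in 7 and negative in 5 of the 12, with a median of 0.06, and the median over all probes was 0.05. With 1 probe per gene, 5 members were positive and 5 negative, and the median was -0.05, while 54.0% of all genes were positive. The differences of the members thus lay on both sides of 0. Leaving out control replicate 2 brought the count at an unadjusted p under 0.05 to 4, with Ddit3 and Atf6 added. Leaving out control replicate 3 brought it to 1, since the limma p-value of Manf became 0.053. Over all tested probes, the count at that level was 2905, and it was 3061 without control replicate 2 and 2726 without control replicate 3. In the authors' deposited table, the fold changes were 1.68 up for Calr (corrected p = 0.785), 1.68 up for Manf (corrected p = 0.838), 1.13 down for Canx and 1.71 down for Ddit3.

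The members belong to pathways whose other genes were looked up in 7 lists chosen with earlier results of these data known. Apart from the members, 98 of 103 listed genes were tested, of which 59 had a positive and 39 a negative difference, with a median of 0.05. This split depends on the scaling: with the members included, 64 of 108 genes were positive, and 49 when the arrays were scaled to their medians. At an unadjusted limma p under 0.05, 4 were higher and 2 lower in R6/2, together 6.12% of them, and over all genes 3.40% were higher and 3.20% lower, together 6.60%. Of the 4 higher genes, Tram1 was well above background on 1 of 4 control arrays and Creb3l2 on 2 of 4. None passed the adjusted threshold, which 0.00371% of all genes did. Of these 98 genes, 2 had every R6/2 array above every control array and 2 had every one below. Over all 26954 genes, the groups did not overlap in 1272, either direction counted.

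Among the ER chaperones, 9 of 16 tested genes were positive, with a median of 0.07. Hspa5, the chaperone BiP that holds the sensors inactive, had a difference of 0.23 (SE 0.23, limma adjusted p = 0.870), and its interval of -0.30 to 0.76 holds values near that of Calr. For Hsp90b1, the ER form of the heat shock protein Hsp90, the R6/2 arrays (4.32 to 4.61) all lay just below the control arrays (4.61 to 4.83), with a difference of -0.23 (adjusted p = 0.813). Serp1, a stress-induced ER membrane protein, had a difference of 0.72 (limma adjusted p = 0.708). Dnajc10, an ER co-chaperone with disulfide reductase activity, had -0.68 (limma adjusted p = 0.689), and -0.16 in its other tested probe.

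The isomerases and the degradation genes were nearly evenly split. Of 18 disulfide formation and isomerase genes, 11 were positive with a median of 0.03, none at an unadjusted limma p under 0.05, and Txndc5 had the smallest p-value with a difference of 0.94 (SE 0.62, adjusted p = 0.794). Txndc5 was well above background on 3 of 4 control arrays, and its R6/2 arrays ranged from -2.43 to 0.60, the highest being replicate 2. Control replicate 1 had the lowest share of all probes well above background, 50.1%. A mark missing on 1 control array therefore does not by itself show a low level, here or in the genes below. Of 19 genes of ER-associated degradation, 8 were positive with a median of -0.09, again none at an unadjusted p under 0.05 in the probe that represents the gene. Derl2, a membrane protein of the degradation channel complex, had every R6/2 array above every control array, with a difference of 0.57 (limma adjusted p = 0.745) and 0.89 and 0.94 in its other probes, of which the former was at an unadjusted p under 0.05 (limma adjusted p = 0.593). Ube2g2, a ubiquitin-conjugating enzyme of this pathway, had -0.64 (adjusted p = 0.709) and -0.07 in its other probe. The further genes with the smallest p-values of these lists were Erp44 at 0.39, Txndc12 at -0.42 and Rnf5 at 0.58. For Rnf5, the control arrays ranged from -0.15 in replicate 2 to 1.97, and the R6/2 arrays from 1.64 to 2.00.

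Of 16 tested sensors and transcription factors, 10 were positive, with a median of 0.10. Mbtps1, the protease that makes the first cut in Atf6, had levels of 3.27, 3.74, 2.89 and 2.98 in control and 2.28, 2.10, 2.55 and 2.56 in R6/2. Every R6/2 array was lower than every control array, with a difference of -0.85 (SE 0.25, limma adjusted p = 0.590), but its other tested probe had -0.30. Creb3l2, a transcription factor cut at the membrane like Atf6, had a difference of 1.20 (SE 0.49, adjusted p = 0.698), with 2 of 4 control and 3 of 4 R6/2 arrays well above background. The size of this difference rests partly on background values, with a mean control level of -4.61. Eif2ak3, which codes for Perk, had a difference of 0.42 (adjusted p = 0.833). Eif2ak4, a kinase that like Perk acts on translation initiation, had 1.35 (adjusted p = 0.727), and -0.06 and 0.43 in its other probes. In the first of these probes, the control arrays ranged from -4.57 in replicate 4 to -1.61.

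The targets of Atf4 and Ddit3 had 14 positive genes of 19, a median of 0.13 and none at an unadjusted limma p under 0.05. Over all genes, 54.0% were positive and the median was 0.03. Atf3, a stress-induced transcription factor of this list, had the smallest p-value of the list, with a difference of 1.10 (limma adjusted p = 0.761). Its control levels were low, with a mean of -3.53 and 3 of 4 arrays well above background. Wars and Vldlr followed, at 0.69 and -0.38, with 0.01 and -0.37 in their other probes. Of 4 secreted ER stress proteins, Manf was at an unadjusted p under 0.05. Its paralogue Cdnf had a difference of 1.17 (SE 0.59, limma adjusted p = 0.743), with 3 R6/2 arrays above the highest control array and 1 below the lowest. Cdnf was also low in control, with a mean of -4.02 and 3 of 4 arrays well above background. Creld2 had a difference of 0.01. Of 18 genes for translocation and signal peptide cleavage, 10 were positive with a median of 0.02. Tram1, a membrane protein beside the translocation channel, was well above background on 1 of 4 control arrays and on 4 of 4 R6/2 arrays. It was therefore tested through its R6/2 arrays, and the size of its difference is not given because most control values are background. Srprb, a subunit of the receptor that brings ribosomes to the ER, had a difference of 1.08 (limma adjusted p = 0.691). Sec61a1, the main subunit of the translocation channel, had -0.44 (adjusted p = 0.733), with 3 R6/2 arrays below the lowest control array.

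**Figure D4:**
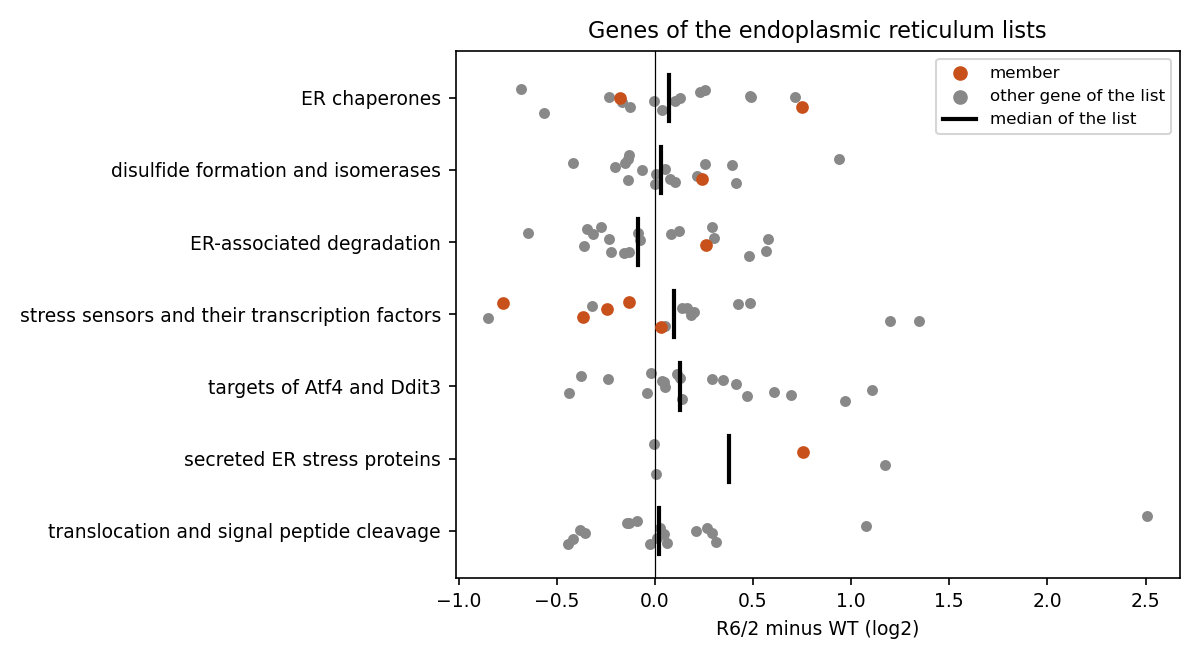
Log2 difference, R6/2 minus control, of each tested gene (points) in the 7 ER lists, with the members in orange and the list's median as a bar. The medians lie between -0.09 and 0.38, and the highest, of the secreted proteins, rests on 4 genes; the point farthest to the right is Tram1, whose distance is no measured size because 1 of 4 control arrays was well above background.

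The genes that share a promoter element with a member also had differences on both sides of 0. Of the genes with the first ER stress response element, 21 were tested, with 12 positive and 9 negative differences and a median of 0.01. Calr was the 1 gene higher and Xlr3a, of a gene family with closely similar copies that a probe may not tell apart, with a difference of -2.03, the 1 lower at an unadjusted limma p under 0.05, and none passed the adjusted threshold. Known ER stress genes with this element included Hspa5 at 0.23, Hsp90b1 at -0.23, Dnajc3 at 0.49, Pdia6 at 0.10, Derl3 at 0.12 and Syvn1 at -0.13. Of 7 tested genes with the second form, 6 were positive, with a median of 0.25, and none was at an unadjusted p under 0.05. Over all genes, 54.0% were positive. Calr and Canx, which both hold the first element in the sequences shown above, had differences of 0.75 and -0.18.

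**Figure D5:**
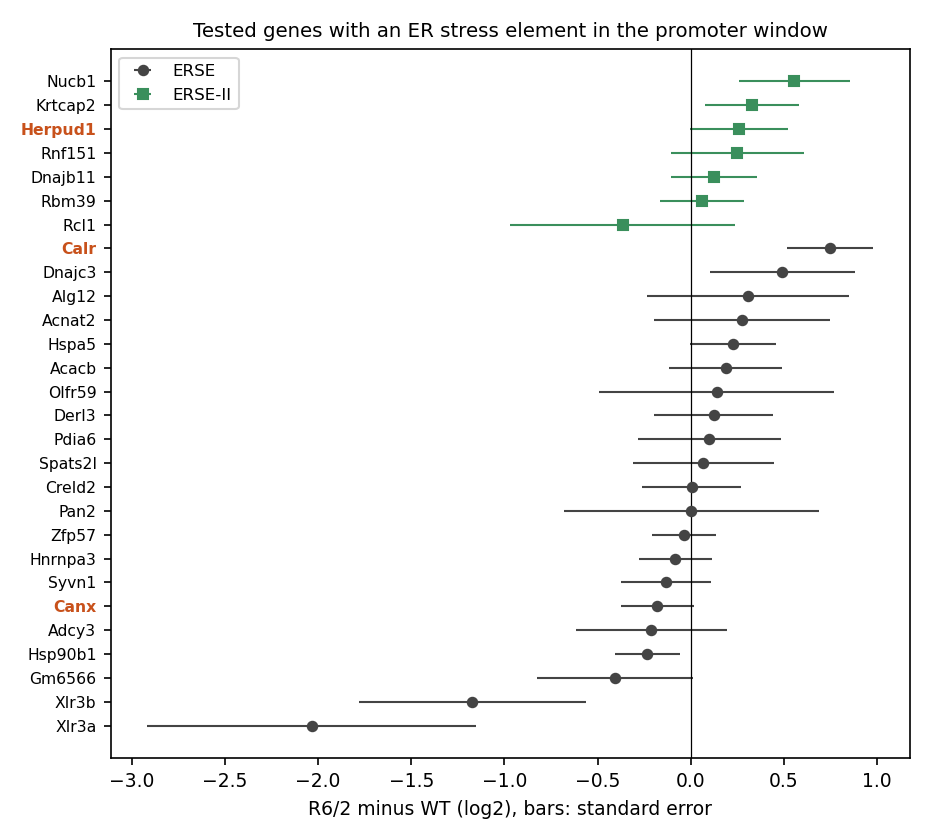
Log2 difference, R6/2 minus control, with bars for its standard error, of the tested genes whose promoter window holds the first form (ERSE, circles) or the second form (ERSE-II, squares) of the ER stress response element, with the members named in orange. Of the genes with the first form, 12 are positive and 9 negative.

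The arrays were checked for what could move with the genotype. The share of probes well above background was 50.1% in control replicate 1, 67.8% to 76.2% in the other control arrays and 74.0% to 78.8% in R6/2, and the 75th percentile of the intensity was 314 to 383. The defining markers of the sorted cells were present: all 14 MSN markers were tested. All 14 had negative differences, with a median of -0.54 and 7 at an unadjusted limma p under 0.05, where 3.20% of all genes were lower. None passed the adjusted threshold. Scn4b, the gene marked by the reporter, had the most negative difference of the 14, at -1.15 (limma adjusted p = 0.552). Their summed level, in multiples of the 75th percentile, was 1031 to 1261 in control and 704 to 804 in R6/2. Of other cell types, 9 of 9 oligodendrocyte markers (median -0.82, summed level 8.11 to 61.1 in control and 7.19 to 15.8 in R6/2), 7 of 9 astrocyte markers (0.25; 1.99 to 3.92 and 2.00 to 5.50) and 7 of 8 neuroblast and progenitor markers (0.30; 5.10 to 9.24 and 7.35 to 11.0) were tested. Of the neuroblast and progenitor markers, 2 of 7 were higher in R6/2 at an unadjusted limma p under 0.05, Dcx at 1.18 with all R6/2 arrays above all control arrays (adjusted p = 0.485, an unadjusted p below that of Calr) and Sox2 at 1.20 (adjusted p = 0.708). Over all genes, 3.40% were higher at that level. Of microglia, 8 of 9 were tested (0.15; 179.5 to 199 and 149 to 174), of endothelial and mural cells 6 of 9 (-0.20; 3.46 to 5.0 and 2.98 to 3.98) and of striatal interneurons 7 of 9 (-0.13; 168 to 189 and 149 to 173). The microglial sum rests mostly on Itgam (mean log2 level 7.29 in control and 7.08 in R6/2) and the interneuron sum on Lhx6 (7.43 and 7.30), so neither is a level of its cell type. The interneuron median of -0.13 is also the difference of Lhx6. Npy, of the interneuron list, was above background on 0 control arrays and 4 R6/2 arrays, so it was tested only through R6/2. The astrocyte markers Gja1 and Gjb6, the microglial P2ry12, Pdgfrb, Rgs5 and Vtn of the endothelial and mural list, the interneuron markers Chat and Calb2, and Top2a were not above background on enough arrays to be tested. The part of these shifts in the values of Calr, Manf and the other members was not tested, and fewer cells of a type and less RNA per cell cannot be told apart in such samples.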

How the data were processed

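Total RNA of 8 samples was hybridised to 8 1-colour arrays (Cy3), 1 per sample. Per the file headers, the scanner files hold spot intensity from Agilent Feature Extraction 10.7.3.1, background-subtracted, detrended and not scaled between arrays, with probe coordinates on mm9. The authors' deposited table holds raw intensity, log2 values relative to the array's 75th percentile, a p-value, a corrected p-value and a fold change per probe. It was used for the fold changes credited to it and, through its log2 values, as an alternative. Exon or UTR positions of the probes were not analysed here.

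Here the processed intensity was taken to log2 without spots marked as outliers, averaged per probe, and centred on the 75th percentile of the array's non-control probes. The 41385 probes that the scanner software marked as well above background on 4 or more of the 8 arrays were tested by genotype with limma 3.58.1 (R 4.3.3; lmFit and eBayes). Tests were two-sided, and p-values were adjusted by Benjamini-Hochberg over those probes, with a threshold of 0.05. All probes of a member are given. In lists, a gene was represented by its probe with the highest mean level (26954 genes). For R6/2 replicate 3, 1 unreadable line of spots was dropped. The fit was tested on simulated data.

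The lists were ER chaperones, disulfide formation and isomerases, ER-associated degradation, stress sensors and their transcription factors, targets of Atf4 and Ddit3, secreted ER stress proteins, translocation and signal peptide cleavage, and markers of MSNs, astrocytes, oligodendrocytes, microglia, endothelial and mural cells, interneurons, and neuroblasts and progenitors. The rule for named genes was all members and up to 3 genes with the smallest p-value of each ER list. Hspa5, Hsp90b1, Eif2ak3, the promoter genes and the single marker genes were named after their values were seen. The members and lists were chosen with earlier results of these data known. Promoter windows came from RefSeq (GRCm38.p6) and were searched by exact letters on both strands. The alternatives were other scalings, backgrounds, filters, weights, blocks and probe rules, the methods' t-test, and leaving out each array. The precision is limited by 4 arrays per group.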

Additional observations from a re-analysis of the deposited data

Results flagged for a closer look

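In 62 sets of 4 arrays, the highest or lowest value was compared with the nearest of the others, and chance alone marks some of them. The Manf level of control replicate 4 was 1.84, apart from 1.24 to 1.28 in the other control arrays, and without it the difference was 0.90. The level of the Atf4 probe A_55_P1979728 was 6.03 in R6/2 replicate 1 and 5.79 to 5.80 in the other R6/2 arrays, and without that array the difference was -0.03. Serp1 was at -0.40 in R6/2 replicate 4, which was alone on its slide, and at 0.66 to 0.85 in the other R6/2 arrays. The Ern1 probe A_55_P2112560, which was not tested, was well above background on 2 R6/2 arrays and on 0 control arrays. Its highest level was nevertheless in control replicate 1, at -3.53, and the highest in R6/2 was -3.70.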

How the results depend on the processing

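Over 20 alternatives, no member probe passed the adjusted threshold, and Calr and Manf kept a positive difference, from 0.61 to 0.89 and from 0.56 to 0.90. Calr had an unadjusted p under 0.05 in all 20, by limma in 19 and by the methods' t-test in 1. The count of members at that level was 2, became 3 with array weights (Ddit3 added), and was 1 to 4 when 1 array was left out. Over all 41385 tested probes, the count at that level was 2905, became 3318 with array weights, and was 2410 to 3061 when 1 array was left out. The count of all probes past the adjusted threshold was 1, and it became 2 under quantile normalization, 8 with normexp background, 7 with probes above background on all 8 arrays, 8 with array weights, 0 with the slide as a block, 0 with the methods' t-test, 5 when the probes of a gene were averaged, and 0 to 3 when 1 array was left out. With a replicate block it was 0, and the members' differences and calls did not change; arrays with the same number deviated from their group means with correlations of -0.04 to 0.02, so the numbers do not pair them. The probe Atf4 A_55_P1979728 turned to -0.068 under median scaling, -0.16 without control replicate 1 and -0.03 without R6/2 replicate 1, and leaving out 1 array gave -0.16 to 0.17. Ern1 A_51_P516705 turned to 0.10 without control replicate 4, with a range of -0.45 to 0.10. Ern1 A_55_P2112564 turned to -0.10 under quantile normalization, -0.093 with array weights, -0.27 with the slide as a block or without R6/2 replicate 4 (the same arrays in effect), -0.05 without control replicate 1 and -0.01 without control replicate 3, with a range of -0.27 to 0.29 when 1 array was left out. The cause was not tested. Of the listed ER genes, 64 of 108 had a positive difference, and 49 to 66 under the alternatives. The low end, 49 of 108, came from median scaling, so a majority of positive differences depends on the scaling. With probes above background on all 8 arrays, 93 genes were tested and 51 were positive. With 4 arrays per group, the spread set wide limits, and the interval of Ddit3, for example, runs from -1.75 to 0.20.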
